A study of Mus musculus with 12 samples.

Results

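The AMPA and kainate receptor genes of the mouse forebrain were followed from mid-gestation to the adult. The set holds 9 genes, the 4 AMPA receptor subunit genes Gria1, Gria2, Gria3 and Gria4 and the 5 kainate receptor subunit genes Grik1, Grik2, Grik3, Grik4 and Grik5. They were chosen by symbol, and all 9 were found among the 12158 genes of the expression table. Bulk forebrain was dissected from Chd8+/del5 mice, heterozygous (Het) for a germline mutation of the chromatin remodeller gene Chd8 that every cell carries, and from wild-type (WT) littermates, all of strain C57BL/6N. Polyadenylated RNA was sequenced in 44 stranded libraries. There were 8 of embryonic day e12.5, 9 of e14.5 and 10 of e17.5, then 11 of newborns (P0) and 6 of adults, which carry the label P56 and are described as older than that. The labels give 1 Het and 1 WT sample per stage, and no column could be matched to a single sample, so Het and WT could not be compared and each stage mixes both. Nothing states, library by library, that those of a stage come from different animals.

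AMPA and kainate receptors are ionotropic glutamate receptors, channels that glutamate opens. AMPA receptors carry most fast excitatory transmission in the forebrain, and their subunits assemble in mixed tetramers in which an RNA-edited Gria2 product keeps calcium out. Kainate receptors act on both sides of the synapse and set the strength and timing of transmission. Products of Grik1, Grik2 and Grik3 form channels of low affinity for kainate, while those of Grik4 and Grik5 have high affinity and need a low-affinity partner.

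Values are log2 RPKM, the log of reads per kilobase of gene length scaled to the size of the library. Levels of different genes can be set side by side only as far as the gene lengths used hold, and those are not given. Each stage is given by its lowest, median and highest library. A gene was called higher or lower between 2 stages when their ranges did not overlap, and no p-value is given because Het and WT libraries are mixed. In bulk tissue, fewer cells of a type and less RNA per cell cannot be told apart. Reads were paired ends of 100 bp at e12.5 and single ends of 50 bp at later stages, so read type and stage cannot be told apart in the e12.5 comparison. Relative sequencing depth, read from the steps of the low values, ran from 0.606 to 2.27 in 34 libraries and could not be read in the 10 of e17.5. The e17.5 libraries form 2 sets of 5 by the endings of their names. In a fit with both digit codes of the names, the term for the set was below 1e-08 log2 in 12101 of 12102 genes, so beyond the codes the values hold no difference between the sets. No source used here states how this came about, and the spread at e17.5 is less surely comparable with that of other stages. Adult library 1 stood apart, with a log2 summed level of dividing-cell markers of 4.17, against 0.90 to 1.52 in the other adults. The median level of Chd8 lay between 3.72 in adults and 4.31 at e12.5, and was not used to tell Het from WT libraries.

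The genes lie on 8 chromosomes in the RefSeq annotation of GRCm38.p6. Gria1 lies at chr11:57011571-57330244, Gria2 at chr3:80681450-80804227, Gria3 at chrX:41400819-41678601 and Gria4 at chr9:4417893-4796234. Grik1 lies at chr16:87895901-88290863, Grik2 at chr10:49093680-49790161, Grik3 at chr4:125490259-125714173, Grik4 at chr9:42518182-42945000 and Grik5 at chr7:25009849-25075694. RefSeq promoter windows of 300 bases, 250 before and 50 after the annotated start, were at hand for 6 of the 9 (Gria2, Gria4, Grik2, Grik3, Grik4 and Grik5) and not for Gria1, Gria3 and Grik1. They were searched on both strands for AGCACC followed after 2 bases by GGACAG, the conserved letters of the RE1 element, which the repressor REST binds to hold neuronal genes silent in other cells. This match occurred in 17 of 32851 windows of this length in the mouse (0.0517%), and among the 6 receptor genes in that of Gria2 alone. The site is shown because Gria2 is the subunit that sets calcium entry, with the matched 14 letters in capitals, read on the plus strand of GRCm38.p6 at chr3:80802984-80803013, opposite to the gene and 148 bases before the annotated start, inside the annotated span of the gene.
Gria2 RE1 match: tcgattttAGCACCGCGGACAGcgctttgg
The match is a description of sequence and no measure of binding. The median level of Rest, the gene for REST, was 2.81 at e12.5, 1.98 at e14.5, 1.53 at e17.5, 0.90 at P0 and −0.37 in adults. Rest was looked up after its values had been seen, and its part in the level of any receptor gene was not tested. Gria2 and the searched genes without a match (Gria4, Grik2, Grik3, Grik4 and Grik5) all had higher medians in adults than at e12.5.

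**Figure D1:**
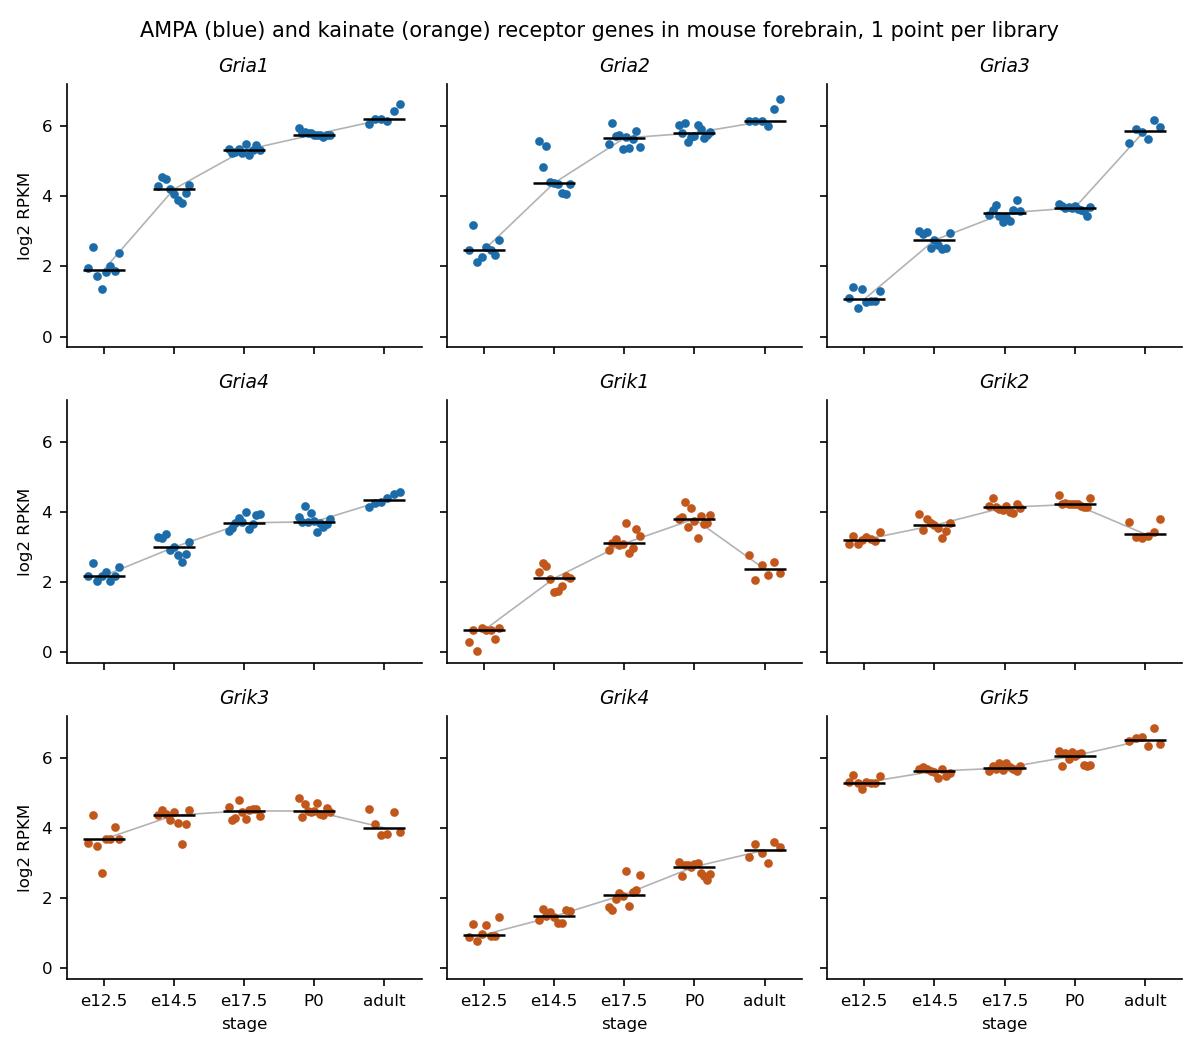
Level of each AMPA (blue) and kainate (orange) receptor gene in log2 RPKM by stage, 1 point per library with a bar at the stage median, and a grey line joining the medians. The ranges of Gria1 do not overlap between neighbouring stages, Gria3 stood far higher in adults than at P0, Grik1 and Grik2 stood lower in adults than at P0, and Grik5 had the highest median at every stage.

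Counted together, 5 of 9 receptor genes were higher at e14.5 than at e12.5 (Gria1, Gria2, Gria3, Gria4 and Grik1) and 0 were lower. Over all 12102 genes compared, 23.1% were higher and 22.3% lower. Between e17.5 and e14.5, 5 were higher (Gria1, Gria3, Gria4, Grik1 and Grik2) and 0 lower, beside 13.1% and 12.1% of all genes. Between P0 and e17.5, Gria1 alone was higher and 0 were lower, beside 4.89% and 6.28%. For P0 against e14.5, 7 were higher, all but Gria2 and Grik3, and 0 were lower, beside 22.7% and 23.1%. In adults against P0, 3 were higher (Gria1, Gria3 and Grik5) and 2 lower (Grik1 and Grik2), beside 29.3% and 25.2%, so these shares are near those of all genes. The median difference of the 9 genes was 0.82, 0.70, 0.15, 0.92 and 0.44 in these 5 comparisons, and that of all genes 0.03, −0.03, −0.0015, −0.04 and −0.01. The comparisons are not independent, because e17.5 and P0 were both set against the same e14.5 libraries and adults against the same P0 libraries.

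**Figure D2:**
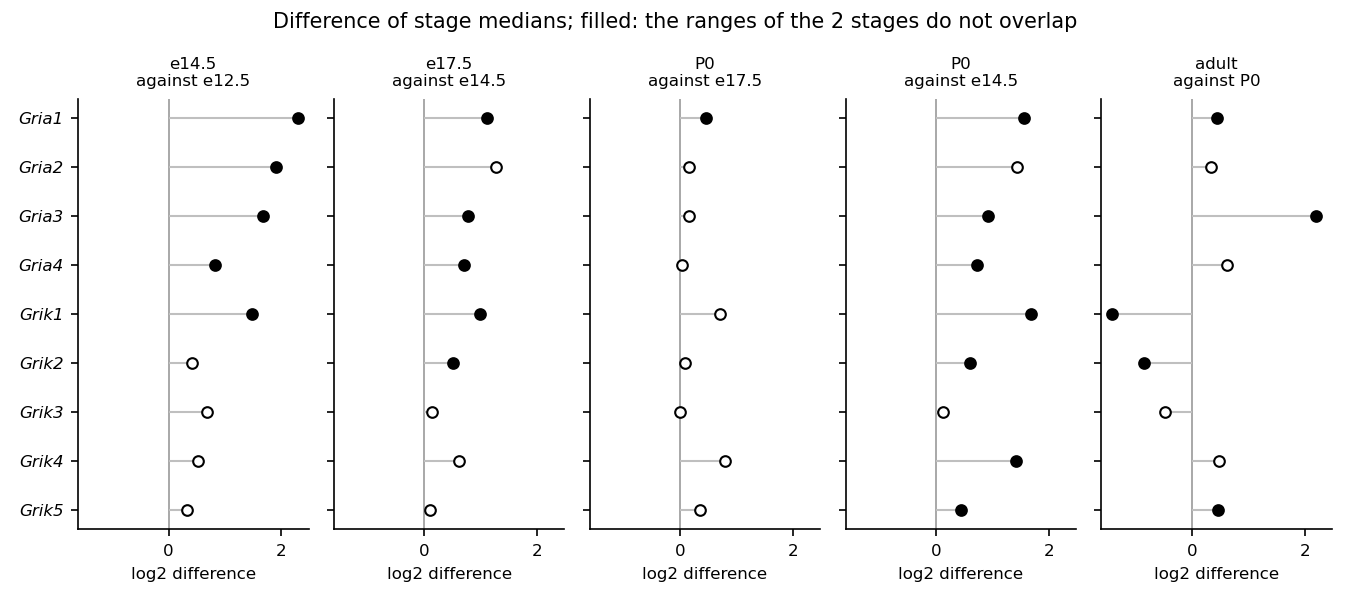
Difference of stage medians in log2 RPKM, the first-named stage minus the second, for the 9 receptor genes in 5 pairs of stages, with filled points where the ranges did not overlap. The points lie at or right of 0 in the first 4 pairs except that of Grik3 at −0.01, and 3 of the 9 lie left of 0 in adults against P0, those of Grik1, Grik2 and Grik3.

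The 4 AMPA receptor genes were higher at e14.5 than at e12.5, without overlap. Gria1, whose product enters synapses during potentiation, had medians of 1.90 at e12.5, 4.20 at e14.5, 5.31 at e17.5, 5.76 at P0 and 6.20 in adults. Its range was 1.34 to 2.55 at e12.5, 3.80 to 4.54 at e14.5, 5.18 to 5.49 at e17.5, 5.70 to 5.93 at P0 and 6.07 to 6.62 in adults. No neighbouring stages overlapped, and Gria1 is the only one of the 9 genes of which this holds. The differences of medians were 2.30 for e14.5 against e12.5, 1.11 for e17.5 against e14.5, 0.45 for P0 against e17.5 and 0.44 for adult against P0. After quantile normalization the adult difference was 0.26, with overlapping ranges.

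Gria2 had medians of 2.47 at e12.5, 4.38 at e14.5, 5.66 at e17.5, 5.81 at P0 and 6.14 in adults. The ranges were 2.12 to 3.18, 4.08 to 5.58, 5.35 to 6.09, 5.56 to 6.08 and 6.01 to 6.78 in the same order of stages. Gria2 was higher at e14.5 than at e12.5 by 1.91, or 3.76-fold. At e14.5 it was spread over 1.51 log2 units, more widely than any other AMPA receptor gene at any stage. E14.5 library 1 stood at 5.58, library 3 at 5.43 and library 2 at 4.84, while the other 6 lay between 4.08 and 4.41. The lowest P0 library stood at 5.56, so P0 and e14.5 overlapped by a single library although their medians differed by 1.43. Without e14.5 library 1, without P0 library 4, or with each library centred on its median, the ranges were apart, with differences of 1.44, 1.44 and 1.47. Adult and P0 libraries overlapped, with a difference of 0.34.

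Gria3, an X-linked gene for a subunit that pairs with Gria2 products, had its largest difference between neighbouring stages after birth. Its medians were 1.06 at e12.5, 2.75 at e14.5, 3.52 at e17.5, 3.67 at P0 and 5.87 in adults. The 6 adult libraries stood at 5.52, 5.91, 5.83, 5.63, 6.16 and 5.96, against 3.44 to 3.78 over the 11 P0 libraries. Every adult library was above every P0 library, and the difference of medians was 2.20, or 4.60-fold, the largest of the 9 genes between these stages. Xist, the RNA of the silenced X chromosome of females, was above 0 in 1 of 6 adult and 9 of 11 P0 libraries, so the sexes were mixed differently. Among libraries with Xist at or under 0 the difference was 2.24 (5 adult and 2 P0 libraries). With Xist above 0, the only adult library was at 5.96 and the P0 median at 3.70. Before birth, Gria3 was higher at e14.5 than at e12.5 by 1.69 and at e17.5 than at e14.5 by 0.77, without overlap. The P0 and e17.5 ranges overlapped, with a difference of 0.15.

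Gria4, known for fast-gating receptors of interneurons, had medians of 2.18 at e12.5, 3.0 at e14.5, 3.69 at e17.5, 3.72 at P0 and 4.34 in adults. Its lowest library at e14.5 was at 2.58 and its highest at e12.5 at 2.56, so the call between these stages rests on a gap of 0.01. It was higher at e17.5 than at e14.5 by 0.70. P0 and e17.5 medians differed by 0.03. Adult libraries ran from 4.14 to 4.58 and P0 libraries from 3.43 to 4.16, an overlap made by adult library 1 and P0 library 3. Without adult library 1 the ranges were apart, with a difference of 0.67, and without P0 library 3 likewise, with a difference of 0.62.

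Of the low-affinity kainate receptor genes, Grik1 was higher stage by stage up to e17.5 and lower in adults than at P0. Its medians were 0.63 at e12.5, 2.11 at e14.5, 3.11 at e17.5, 3.80 at P0 and 2.38 in adults. Grik1 was higher at e14.5 than at e12.5 by 1.48 and at e17.5 than at e14.5 by 0.99. Over the whole span to birth it was higher at P0 than at e14.5 by 1.69, or 3.23-fold, the largest difference of the 9 genes in that comparison. Adult libraries ran from 2.08 to 2.79, against 3.25 to 4.30 at P0. Every adult library was below every P0 library, by 1.42 at the median or 2.69-fold.

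Grik2, whose product forms the main kainate receptors of principal cells with that of Grik5, had medians of 3.21 at e12.5, 3.62 at e14.5, 4.13 at e17.5, 4.22 at P0 and 3.38 in adults. Its e17.5 libraries ran from 3.99 to 4.42, against 3.27 to 3.94 at e14.5, a difference of 0.51 with a gap of 0.05 between the ranges. Adult libraries ran from 3.26 to 3.79, against 4.13 to 4.49 at P0. The adult median was lower by 0.85 on the log2 scale, or 1.80-fold, and no libraries overlapped.

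Grik3, the third low-affinity gene, was not called in any of the 5 comparisons. It had medians of 3.67 at e12.5, 4.36 at e14.5, 4.49 at e17.5, 4.48 at P0 and 4.0 in adults. The differences were 0.68 for e14.5 against e12.5, 0.13 for e17.5 against e14.5 and −0.01 for P0 against e17.5, and −0.47 for adult against P0. Grik3 was the most scattered gene at e12.5, from 2.73 in library 4 to 4.36 in library 2. The adult range, 3.81 to 4.55, met that of P0, 4.32 to 4.86, through 2 libraries, adult library 1 at 4.55 and adult library 5 at 4.45.

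Both high-affinity genes, Grik4 and Grik5, were higher at P0 than at e14.5, and only Grik5 was called between adults and P0. Grik4 had medians of 0.96 at e12.5, 1.48 at e14.5, 2.1 at e17.5, 2.89 at P0 and 3.36 in adults. P0 libraries ran from 2.51 to 3.03, against 1.29 to 1.69 at e14.5, a difference of 1.41 or 2.67-fold. Both e17.5 neighbours overlapped, with e17.5 libraries from 1.67 to 2.78. Adult libraries ran from 3.0 to 3.60 and met the P0 range through adult library 4 alone. Without that library the adult ranges of both Grik4 and Gria2 were above those of P0, with differences of 0.56 and 0.34.

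Grik5 had medians of 5.29 at e12.5, 5.62 at e14.5, 5.71 at e17.5, 6.06 at P0 and 6.51 in adults. No other of the 9 genes had a higher median at any stage, though after e12.5 its range overlapped that of the next gene. P0 libraries ran from 5.76 to 6.20, against 5.43 to 5.73 at e14.5, a difference of 0.44 with a gap of 0.03. Adult libraries ran from 6.33 to 6.85, all above P0, a difference of 0.45. Both calls of Grik5 were lost after quantile normalization, with differences of 0.36 and 0.29.

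Grik5 stood first and Grik1 last at e12.5 and in adults, while the order between them differed. At e12.5 the 3 highest medians were those of Grik5, Grik3 and Grik2, and the lowest were those of Gria3, Grik4 and Grik1. Grik5 and Grik3 did not overlap there, nor did Grik4 and Grik1, while all neighbours between Grik3 and Grik4 did. At e17.5 and P0, Grik5, Gria2 and Gria1 led in this order, each overlapping the next, and Gria1 did not overlap Grik3 below it. In adults, Grik5, Gria1, Gria2 and Gria3 led, each overlapping the next, Gria4 and Grik3 followed, then Grik2 and Grik4, and Grik1 stood alone at the bottom.

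Marker genes of cell types differed between the same stages. The log2 summed level of 8 neuron markers had medians of 10.45 at e12.5, 11.04 at e14.5, 11.55 at e17.5, 11.81 at P0 and 11.87 in adults. The 5 dividing-cell markers had medians of 8.77, 7.47, 5.68, 4.73 and 1.22 in the same order, and the 6 radial glia markers 10.53, 10.41, 10.05, 9.79 and 6.69. At e14.5 against e12.5, 5 of the 6 radial glia markers were lower and Fabp7 was higher, with a median difference of −0.96. Over all genes, 22.3% were lower and 23.1% higher in that pair. The 6 excitatory neuron markers, which include Slc17a7 and Neurod2, had medians of 7.06, 8.87, 9.49, 9.44 and 9.86, and the 6 inhibitory neuron markers 7.63, 7.45, 7.41, 7.74 and 8.26. Between adults and P0 the ranges of the neuron sum overlapped (11.71 to 12.01 in adults and 11.69 to 11.92 at P0). In that comparison 1 of 6 excitatory markers was higher and 2 lower (median difference −1.44), with Slc17a7 at 9.50 in adults and 5.26 at P0 and Neurod2 at 5.55 in adults and 7.22 at P0. Of the 6 inhibitory markers 3 were higher and 3 lower (median −0.94). Of the neuron markers 4 of 8 were higher and 4 lower, and all 5 compared markers of myelinating oligodendrocytes and all 5 of microglia were higher. The summed astrocyte markers ran from 8.93 to 9.71 in adults and from 7.44 to 8.0 at P0. Of 4 cerebellum markers, 0 were in the table. The part of these cell types in the receptor gene differences was not tested.

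The AMPA receptor genes gained on the kainate receptor genes as stages advanced. The 4 AMPA genes summed to a median of 15.9 RPKM at e12.5, 53.0 at e14.5, 116 at e17.5, 138 at P0 and 222 in adults. The 5 kainate genes summed to 65.0, 88.3, 105, 129 and 136 RPKM. A ratio taken within a library does not depend on scaling between libraries. Effects that differ between genes remain in it, so read type and stage cannot be told apart at e12.5 here either. How near the ratio lies to equal sums also rests on the gene lengths used. The ratio of the AMPA to the kainate sum had medians of 0.250 at e12.5, 0.616 at e14.5, 1.07 at e17.5, 1.08 at P0 and 1.63 in adults. The AMPA sum was the larger in 0 of 8 libraries at e12.5, 0 of 9 at e14.5, 9 of 10 at e17.5, 10 of 11 at P0 and 6 of 6 adults. On the log2 scale the ratio ran from −0.88 to −0.15 at e14.5 and from −2.18 to −1.76 at e12.5, a difference of medians of 1.30 without overlap. It was higher at e17.5 than at e14.5 by 0.80 and in adults than at P0 by 0.59, both without overlap, while P0 and e17.5 overlapped and differed by 0.02. The lowest adult ratio, 0.52, was that of adult library 1, and the highest P0 ratio was 0.28.

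**Figure D3:**
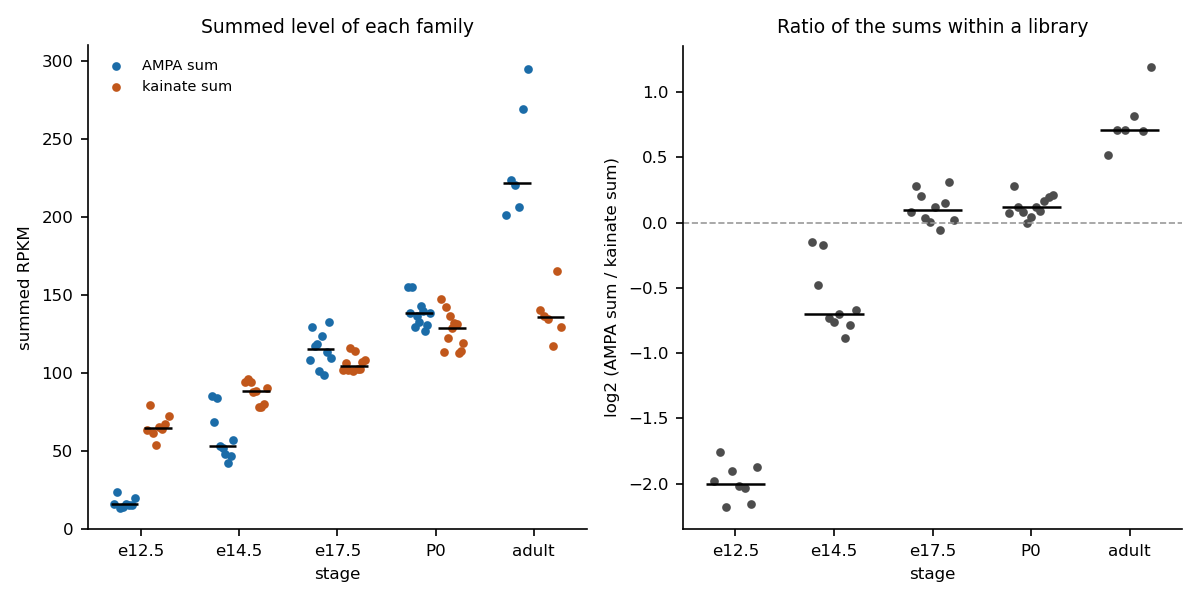
Left, summed RPKM of the 4 AMPA genes (blue) and of the 5 kainate genes (orange) by stage, and right, the log2 ratio of the 2 sums, 1 point per library with bars at stage medians and a dashed line at equal sums. The AMPA sum lies below the kainate sum in every library of e12.5 and e14.5 and above it in all 6 adults.

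Within the AMPA sum, the share of Gria4 was lower after e12.5 and that of Gria3 was higher in adults. Gria4 made up a median 29.0% of the sum at e12.5, 14.2% at e14.5, 11.5% at e17.5, 9.62% at P0 and 8.65% in adults. The e14.5 libraries (11.4% to 15.6%) lay below those of e12.5 (25.1% to 31.4%), and later neighbours overlapped. In that step the level of Gria4 was higher, by 0.82 on the log2 scale, and read type differed as well. Gria3 took 12.9%, 12.4%, 10.1%, 9.35% and 25.0% of the sum from e12.5 to the adult. Its adult range, 21.2% to 27.0%, lay above that of P0, 8.22% to 10.1%. Gria1 took 24.4%, 32.8%, 35.6%, 40.5% and 33.4%, with the adult range (31.7% to 34.6%) below that of P0 (36.7% to 43.4%). Thus the level of Gria1 was higher in adults than at P0 while its share was lower. Gria2 took 34.1%, 40.2%, 42.6%, 41.0% and 32.6%, and none of the 5 pairs of stages compared was apart. Gria2 was above Gria1 in 8 of 8 libraries at e12.5, 8 of 9 at e14.5, 10 of 10 at e17.5, 6 of 11 at P0 and 3 of 6 adults.

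Within the kainate sum, the high-affinity genes held the larger share at every stage. Grik4 and Grik5 together made up a median 64.2% at e12.5, 58.0% at e14.5, 54.1% at e17.5, 55.5% at P0 and 76.1% in adults. Adult libraries ran from 69.2% to 78.3%, above the P0 range of 51.5% to 58.8%. Grik5 alone held 60.7%, 54.9%, 50.2%, 49.9% and 68.6% in the same order, and Grik4 2.97%, 3.14%, 3.98%, 5.47% and 7.26%. Adult shares of Grik4 and Grik5 were both above those of P0 without overlap. Grik1 held 2.08%, 4.86%, 8.28%, 11.3% and 3.84%, and was apart between e14.5 and e12.5, e17.5 and e14.5, P0 and e14.5, and adults and P0. Grik2 held 14.3%, 14.3%, 16.3%, 15.2% and 7.82%, with adults below P0 (6.51% to 10.7% against 13.3% to 17.6%). Grik3 held 19.1%, 22.2%, 21.6%, 18.2% and 12.4%, and its neighbouring stages overlapped.

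**Figure D4:**
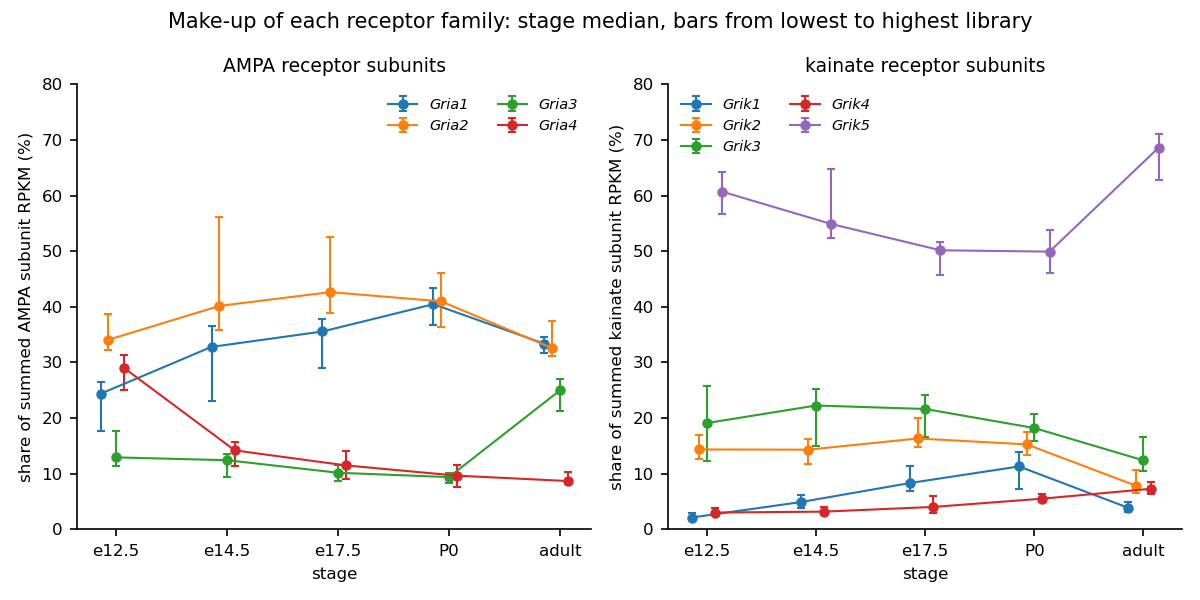
Share of each subunit gene in the summed RPKM of its family by stage, AMPA on the left and kainate on the right, with points at stage medians and bars from the lowest to the highest library. Gria4 is at 29.0% at e12.5 and 14.2% at e14.5, Gria3 reaches 25.0% in adults, and Grik5 holds 68.6% of the kainate sum in adults.

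Proteins that ride with these receptors, anchor them or edit their RNA were followed through 37 genes in 6 lists, of which 36 were in the table and Epb41l1 was not. For P0 against e14.5, 27 of 36 were higher and 0 lower, with a median difference of 0.95. For adults against P0, 21 were higher and 7 lower, with a median of 0.74. At e14.5 against e12.5, 18 were higher and 1, Dlg1, lower. At e17.5 against e14.5, 16 were higher and 0 lower, and at P0 against e17.5, 6 and 0. Of all genes, 22.7% were higher and 23.1% lower for P0 against e14.5, and 29.3% and 25.2% for adults against P0. These shares were 23.1% and 22.3% for e14.5 against e12.5, 13.1% and 12.1% for e17.5 against e14.5, and 4.89% and 6.28% for P0 against e17.5.

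The TARP proteins and GSG1L are auxiliary subunits that set the gating and traffic of AMPA receptors. All 7 of their genes were higher at P0 than at e14.5, beside 22.7% of all genes. Between adults and P0, 4 were higher in adults and 1 lower, beside 29.3% and 25.2% of all genes. Cacng3 was higher at P0 (median 4.36) than at e14.5 (1.90) by 2.46, and higher again in adults (6.67) by 2.31. Cacng2, which encodes stargazin, was higher at P0 than at e14.5 by 1.36 and in adults than at P0 by 0.84. Gsg1l was higher in adults than at P0 by 1.58. Cacng4 went the other way: adult libraries ran from 3.87 to 5.72 around a median of 4.30, those of P0 from 6.65 to 7.07 around 6.86, and the difference was −2.56. Cacng5 and Cacng7 overlapped between adults and P0, with differences of −0.17 and −0.06.

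Of the 10 genes for cornichons, Shisa proteins and other AMPA receptor partners, 6 were higher at P0 than at e14.5, beside 22.7% of all genes. In adults against P0, 6 were higher and 1 lower, beside 29.3% and 25.2% of all genes. Shisa9, Shisa6 and Shisa7 had the largest differences of this list for P0 against e14.5, 1.92, 1.87 and 1.74, and Cnih3 and Shisa9 for e14.5 against e12.5, 2.65 and 2.21. Frrs1l and Abhd6, with roles in receptor assembly and surface delivery, were higher in adults than at P0 by 1.86 and 1.63, and Syndig1 by 1.83. Cnih2, an auxiliary subunit that slows channel closing, stood at 7.76 at the adult median and 8.39 at that of P0, a difference of −0.63 without overlap, and Cnih3 was higher in adults by 0.75. Shisa6 differed by −1.38 in adults against P0, with overlapping ranges.

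The kainate receptor partners Neto1 and Neto2 were both higher at e14.5 than at e12.5, by 1.36 and 0.77. Neto1, at a P0 median of 4.65 and an e14.5 median of 2.17, was higher at P0 by 2.48, and overlapped between adults and P0. The adult median of Neto2 was 4.16 and its P0 median 5.21, so that it fell by 1.05 on the log2 scale without overlap.

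Of the 12 genes for anchoring and traffic in the table, 9 were higher at P0 than at e14.5, beside 22.7% of all genes. In adults against P0, 8 were higher and 2 lower, beside 29.3% and 25.2% of all genes. The neuronal pentraxin genes, whose secreted products gather AMPA receptors, had large adult differences. Nptx1, at 6.98 in adults and 2.84 at P0, differed by 4.14. Nptx2, at 5.74 in adults (5.02 to 8.0) and 2.73 at P0, differed by 3.02. Nsf, an ATPase of membrane fusion that binds the Gria2 product, was higher in adults by 2.48. Grip1 and Grip2, scaffold genes for the tails of Gria2 and Gria3 products, were higher at P0 than at e14.5 by 0.78 and 1.71 and lower in adults than at P0, with differences of −1.94 and −0.81. Dlg2, the gene for PSD-93, was higher at P0 than at e14.5 by 2.06 and Akap5 by 1.40. Dlg1 was higher in adults than at P0 by 2.26, and at e14.5 it was lower than at e12.5, with a difference of −0.65.

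Adarb1, the deaminase gene known for editing the pore codon of Gria2 and sites in Grik1 and Grik2 RNA, had medians of 1.65 at e12.5, 2.17 at e14.5, 2.91 at e17.5, 3.17 at P0 and 5.48 in adults. It was higher at P0 than at e14.5 by 1.0 and in adults than at P0 by 2.31, both without overlap. Adar was higher in adults by 0.92 and Adarb2, which has no known editing activity of its own, lower, with a difference of −0.55. Editing itself was not measured here. Grid1, a gene for a related receptor that acts as a synaptic organiser, was higher at P0 than at e14.5 by 1.55 and in adults than at P0 by 0.53, both without overlap.

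**Figure D5:**
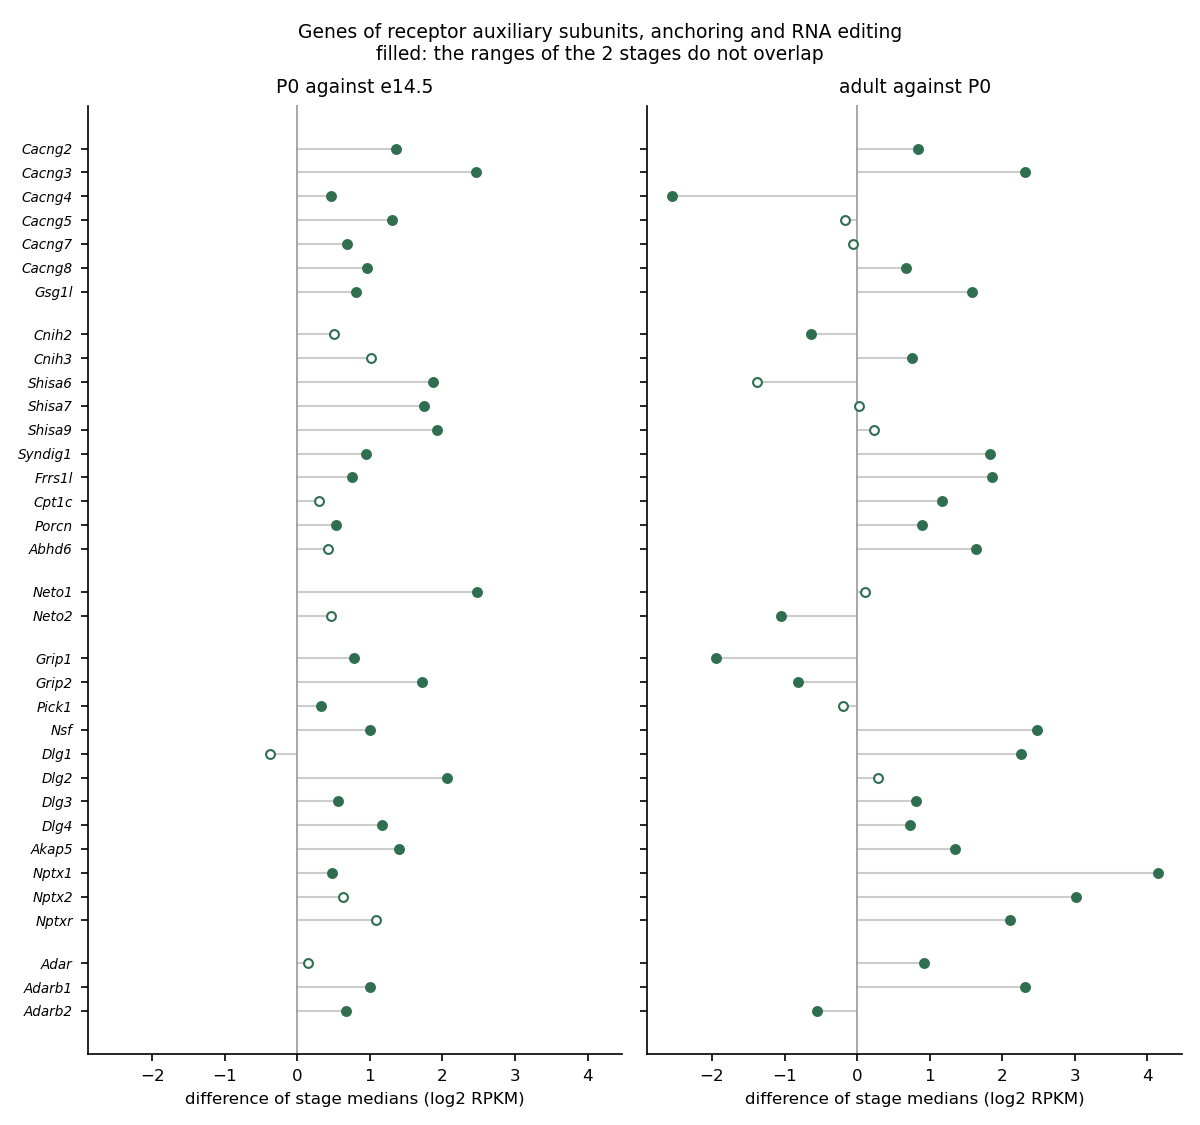
Difference of stage medians in log2 RPKM for genes of auxiliary subunits, anchoring and traffic, and RNA editing, in blocks by list, for P0 against e14.5 on the left and adult against P0 on the right, with filled points where the ranges did not overlap. Both comparisons use the P0 libraries. Cacng4, Grip1 and Neto2 lie left of 0 in adults against P0, and Nptx1 lies farthest right at 4.14.

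The course of each receptor gene over the 44 libraries was set beside that of all genes whose mean was 0 log2 RPKM or more, and the 3 with the highest Pearson r are named. These values describe likeness over libraries that share stage, and hold no test. For Gria1 they were D3Bwg0562e, the kinase gene Prkce and Camk2b, a subunit gene of calcium/calmodulin-dependent kinase II (r 0.993, 0.993 and 0.992). For Gria2 they were Clstn2, Ptprt and the calcium channel gene Cacna1d (0.979, 0.978 and 0.978), for Gria3 Hpcal4, Plcb1 and Rapgef4 (0.991, 0.989 and 0.988), and for Gria4 Slc7a14, Slitrk3 and Rgs17 (0.976 each). For Grik1 they were Jazf1, Zfp575 and the NMDA receptor gene Grin3a (0.983, 0.980 and 0.979), and for Grik2 C77370, Ankrd12 and the adhesion gene Ncam1 (0.954, 0.952 and 0.952). For Grik3 they were Mark1, Nbea and Chd3, at the lowest values of the 9 genes (0.863, 0.861 and 0.859). For Grik4 they were Dlg4, the gene for PSD-95, Cdk5r2 and the calcium channel gene Cacna1a (0.977, 0.977 and 0.972), and for Grik5 Ggt7, Sez6l2 and Mapk8ip2 (0.971, 0.969 and 0.969). Ranked by Spearman's rho, 0 or 1 of the 3 named genes stayed among the first 3 for each receptor gene, so the names are a matter of small differences. Among the 9 genes themselves, r over the 36 pairs ran from 0.25 to 0.98, with a median of 0.79. With each value set against its stage median, all 36 pairs still had an r above 0, from 0.08 to 0.67, with a median of 0.37. Pairs of other genes were not taken for comparison, so this does not set the receptor genes apart. Adult library 1 was kept in these values. Gria1 and Gria4 were the pair with the highest r within stages.

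Adult library 1 stood at the edge of the adult values in 5 of the 9 genes. Any 1 of 6 libraries is at the edge in some genes by construction. The same count was not taken over all genes, so the 5 do not set the receptor genes apart. It was below the other 5 adults in Gria1 (6.07), Gria3 (5.52) and Gria4 (4.14), and above them in Grik1 (2.79) and Grik3 (4.55). In Gria2, Grik2, Grik4 and Grik5 it lay inside their range. Its summed markers of radial glia were at 8.79, against 6.11 to 6.77 in the other adults, and those of myelinating oligodendrocytes at 9.58, against 10.09 to 10.98. The part of these cells in its receptor gene values was not tested. Without it the 5 adult calls of the receptor genes were kept, and Gria4 was added.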

How the data were processed

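Per the labels, the authors deposited 1 expression table of log RPKM values for bulk forebrain RNA. The deposited values are log2 values: above a floor, 2 to the power of a value moved in whole steps of a read (within a tolerance of 0.03) in 34 of 44 libraries. The submitters' processing notes name STAR 2.4.2a and build mm9 beside tools for demultiplexing and for ChIP-seq. How reads were counted, with which annotation and gene filter, is not given in the sources used here. As the values hold an unstated prior count, folds of low genes are understated. The name codes of the libraries are not explained by the labels, so the planned Het against WT fit was not run. Genes with a mean at or under −2 log2 RPKM (56) were left out of counts over all genes. The ChIP-seq peak list was not used here, since no mm9 annotation was used. Libraries are numbered within a stage in table order, which is only a name.

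Stages were compared by medians and non-overlapping ranges, with no mean or p-value. The comparison was also run on simulated data, in which differences of at least 1 log2 unit were planted in some genes. Smaller differences, and shifts shared by many genes of a library, were not covered by that simulation. Sums, shares and ratios were taken on 2 to the power of the deposited value. The members, lists and tests were chosen with earlier results of these data known. The text names the 9 members, up to 3 genes of each associated list in each direction in each pair of stages, whose values in other pairs may also be given, the 3 genes most like each member, and marker genes beside a result. A gene of these lists is not reported here by name, while counts include it. Alternatives were median centring, quantile normalization, leaving out each library, each value of the first name code, log2(RPKM + 1), subtracting 0.1 RPKM, means, other gene filters, and medians at least 1 log2 unit apart. The within-stage correlation and the split by Xist were added after the data were seen. Python 3.11.15, pandas 2.3.3 and numpy 2.4.6 were used.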

Additional observations from a re-analysis of the deposited data

Results flagged for a closer look

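Single libraries that stood far from the rest of their stage were searched for in 92 sets of values, each a receptor gene level, share or ratio at 1 stage. The gap to the nearest library, set against the whole range, passed Dixon's 95% limit in 8 sets, where chance gives about 4.6 at 1 in 20. The sets share genes and libraries and are not independent, so the 8 cannot be read as an excess over chance. P0, with 11 libraries, was not searched. At e14.5, library 7 was low in Grik3 (3.54 log2 RPKM, nearest 4.11) and in the share of Grik3 in the kainate sum (14.9%, nearest 21.4%). The same library was high in the share of Grik5 (64.9%, nearest 55.7%) and of both high-affinity genes (68.0%, nearest 59.1%), values that are not independent of its Grik3. At e17.5, library 2 was high in the share of Gria2 in the AMPA sum (52.5%, nearest 45.0%) and low in the log2 ratio of Gria1 to Gria2 (−0.85, nearest −0.47). At e12.5, library 4 was high in the share of Gria3 (17.7%, nearest 13.5%). Among adults, library 4 was high in the share of Gria4 (10.2%, nearest 8.82%).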

How the results depend on the processing

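Of the 45 differences of single receptor genes, median centring changed the call of Gria2 for P0 against e14.5 alone. With log2(RPKM + 1) values none changed its call or sign. That scale keeps the order of libraries within a gene, so no call could change and this is no check of the calls. With quantile normalization, 1 receptor gene (Gria3) was higher in adults than at P0. With medians at least 1 log2 unit apart also required, 1 receptor gene was higher for e17.5 against e14.5, 0 for P0 against e17.5 and 3 for P0 against e14.5, and in adults against P0 1 was higher and 1 lower. These counts are lower by construction. Leaving out 1 library gave 3 to 5 receptor genes higher in adults than at P0 and 0 to 1 associated genes lower at P0 than at e14.5. The median difference of Grik3 for P0 against e17.5 ran from −0.048 to 0.025 when libraries were left out, and was 0.068 as a difference of means.

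With libraries of the first name code 1 only, which has no genotype assigned, 8 receptor genes were higher at e14.5 than at e12.5, 2 at P0 than at e17.5 and 5 in adults than at P0. Ranges of fewer libraries overlap less often by construction, for all genes as well. Counts over all genes with this code are not given here for e14.5 against e12.5 and for adults against P0. The 8 and the 5 therefore cannot be read against a background. For e17.5 against e14.5, 2959 genes were then higher and 3080 lower, and for P0 against e17.5 1914 and 2035, with 14 associated genes higher and 1 lower. For P0 against e14.5, 1 associated gene was lower. Differences of Grik3 were −0.16 for e17.5 against e14.5 and 0.27 for P0 against e17.5, and in the second comparison those of Gria2 and Gria3 were −0.028 and −0.089. With the same code the share of Gria1 at e17.5 was 32.6%, of Gria3 11.3% at e17.5 and 8.70% at P0, of Gria4 26.7% at e12.5, of Gria2 35.0% in adults and of Grik5 65.6% in adults, and the log2 AMPA to kainate ratio at e17.5 was 0.28. With code 2 only, 2253 genes were lower at e17.5 than at e14.5, and for P0 against e17.5 1395 were higher and 1481 lower, with 13 associated genes higher. For P0 against e14.5, 1 associated gene was lower. The cause of the code differences was not tested. No paired analysis was possible because no column carries a labelled replicate number.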

Other observations

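Genes picked for their likeness to Gria2 within stages were also highest in e14.5 libraries 1 and 3, where Gria2 was highest. With each library set against its stage median and adult library 1 left out, the genes most like Gria2 over 43 libraries were Zfc3h1, Mtx3 and Cers4 (Pearson r 0.897, 0.896 and 0.886), and Ogt, the gene for the O-GlcNAc transferase, had an r of 0.877. This way of ranking, and the choice of Ogt, were made after the values had been seen, and the libraries share stages. At e14.5, Ogt stood at 6.53 in library 1 and 6.06 in library 3, and between 5.23 and 5.60 in the other 7 libraries. Zfc3h1 stood at 3.93 and 3.52 in these 2 libraries and between 2.4 and 2.93 in the others. For Zfc3h1 and Ogt the highest library was also the highest of Gria2 at each of the 5 stages. For Mtx3 this failed at P0 (library 1, against library 3 for Gria2) and for Cers4 in adults (library 5, against library 6). These genes were picked for their likeness to Gria2. Their high values in e14.5 libraries 1 and 3 and the shared highest libraries therefore follow in part from that choice.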
